A study of Mus musculus with 9 samples.

Results

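The interleukin-6 family consists of cytokines most of which signal through the shared receptor subunit Il6st, also called gp130. The 10 genes described here are the ligands Il6, Il11, Lif and Osm, the receptor chains Il6ra, Il6st, Lifr and Osmr, the transcription factor gene Stat3 and its feedback inhibitor Socs3. They were chosen by name, with every non-control array probe whose RefSeq accession maps to one of them, and they are 10 of the 20145 gene symbols on the array. All 10 were measured, with 13 probes in all, 3 of them for Lifr and 2 for Stat3.

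A family ligand first meets its own receptor chain, Il6st or a second signalling chain then joins, and Janus kinases bound to the chains phosphorylate STAT3. STAT3 moves to the nucleus and turns on genes of the acute phase, of cell survival and of astrocyte reactivity. Socs3 is one of those genes, and its protein binds Il6st and the kinases and shuts the signal down. In injured brain the family is known from microglia, astrocytes, endothelium and arriving leukocytes, and leukemia inhibitory factor and ciliary neurotrophic factor are also known to act on neurons and glia.

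The data are 1-colour Agilent arrays of brain RNA from adult male C57/BL6 mice, 3 arrays from 3 mice in each of 3 groups. In VEGF mice the middle cerebral artery was occluded for 90 min, and 3 h after reperfusion they received 1 µl of recombinant human VEGF-A165, a growth factor of blood vessels, at 10 µg/ml in phosphate-buffered saline into the right lateral ventricle. MCAO mice had the same occlusion and 1 µl of the saline alone by that route. Sham mice underwent sham surgery, and the labels state no injection for them. Brains were collected 24 h after reperfusion, 21 h after any injection, at 50 to 53 days of age in VEGF mice, 50 to 53 days in MCAO mice and 50 to 52 days in sham mice. No transgene or mutation is named, the side and region of the brain are not stated, and the title asks how VEGF affects expression after focal ischaemia.

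All 6 arrays of mice with occlusion lay on 1 slide and all 3 sham arrays on another, so slide, injection and ischaemia cannot be told apart in a comparison with sham. Between 73.0% and 81.8% of spots were well above background per array. MCAO array 1 and VEGF array 1 stood apart from the other 4 arrays of mice with occlusion. They were dimmer as a whole. The 75th percentile of processed intensity was 723 on VEGF array 1 and 797 on MCAO array 1. It was 1320 to 1770 on the other 4 and 1250 to 1340 on the sham arrays. VEGF array 1 also had the lowest share of spots well above background. Over 10 neuron markers the median log2 difference from sham was -2.50 on VEGF array 1 and -2.44 on MCAO array 1, against -0.86 to -0.45 on the other 4. Over 10 endothelial markers it was 2.67 on VEGF array 1 and 2.11 on MCAO array 1, against 0.44 to 0.77. MCAO array 1 also differed from the other 8 in its day of scanning. Leading results are therefore given with and without this pair of arrays. Sham arrays carried all 10 neuron markers well above background.

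Start-site sequences of Il6, Il11, Lif, Osmr and Socs3 are shown because they are the windows of the family that hold letters that STAT3, NF-kB or the stress factor AP-1 is known to bind. RefSeq windows of 300 bases on GRCm38.p6, from 250 before to 50 after an annotated start, were found for 9 of the 10 genes (11 windows). Capitals mark the matches found, on either strand. The letters searched were TTCNNNGAA for STAT factors, TGANTCA for AP-1, GGG followed by any 2 bases and TTTCC for NF-kB and TGACGTCA for cyclic AMP response factors, and no match overlapped another. The windows printed lie at chr5:30012864-30013163 on the plus strand for Il6, chr7:4778092-4778391 on the minus strand for Il11, chr11:4257318-4257617 on the plus strand for Lif, chr15:6874264-6874563 on the minus strand for Osmr and chr11:117969317-117969616 on the minus strand for Socs3.
Il6: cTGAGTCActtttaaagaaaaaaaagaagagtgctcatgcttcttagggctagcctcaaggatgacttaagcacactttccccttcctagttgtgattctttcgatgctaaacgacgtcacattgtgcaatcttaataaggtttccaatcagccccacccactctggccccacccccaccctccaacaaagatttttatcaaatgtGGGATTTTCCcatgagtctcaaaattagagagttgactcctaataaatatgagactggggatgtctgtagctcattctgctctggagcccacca
Il11: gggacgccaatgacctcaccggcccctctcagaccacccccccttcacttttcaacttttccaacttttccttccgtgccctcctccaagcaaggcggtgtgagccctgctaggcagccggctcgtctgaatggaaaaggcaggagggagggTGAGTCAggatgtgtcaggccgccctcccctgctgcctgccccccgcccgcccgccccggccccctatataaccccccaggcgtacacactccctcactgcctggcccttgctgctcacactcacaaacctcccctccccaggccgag
Lif: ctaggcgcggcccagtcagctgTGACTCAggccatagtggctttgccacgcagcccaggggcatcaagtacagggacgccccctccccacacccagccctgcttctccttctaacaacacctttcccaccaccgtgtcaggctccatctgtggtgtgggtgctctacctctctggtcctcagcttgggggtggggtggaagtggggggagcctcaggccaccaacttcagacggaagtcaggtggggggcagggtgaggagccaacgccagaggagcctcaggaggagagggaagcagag
Osmr: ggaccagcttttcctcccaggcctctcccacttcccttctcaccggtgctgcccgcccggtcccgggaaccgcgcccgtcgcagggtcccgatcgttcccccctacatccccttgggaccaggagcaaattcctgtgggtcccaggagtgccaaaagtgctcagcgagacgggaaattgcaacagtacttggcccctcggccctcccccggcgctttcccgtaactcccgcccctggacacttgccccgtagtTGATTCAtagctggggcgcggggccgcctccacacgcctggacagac
Socs3: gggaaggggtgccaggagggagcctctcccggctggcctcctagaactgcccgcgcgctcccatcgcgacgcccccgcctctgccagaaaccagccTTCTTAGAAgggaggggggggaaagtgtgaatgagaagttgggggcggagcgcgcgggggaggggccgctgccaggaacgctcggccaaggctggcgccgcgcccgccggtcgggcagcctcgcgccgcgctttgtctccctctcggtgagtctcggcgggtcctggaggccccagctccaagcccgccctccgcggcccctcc
The STAT letters were in the Socs3 window, starting 154 bases before the start site, and in 8.3% of all 32851 such windows. The AP-1 letters were in the windows of Il6, Il11, Lif and Osmr, starting 249, 98 and 228 bases before the start for Il6, Il11 and Lif and at base 4 from the start for Osmr, and in 7.81% of all windows. The NF-kB letters were in the Il6 window, 44 bases before the start, and in 1.63% of all windows. The cyclic AMP letters were in none of the 11 windows and in 1.79% of all. The windows of Il6ra, Il6st, Lifr and Stat3 and the other Il11 window held none of these letters. A match describes letters and does not show a bound site.

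Levels are given as scaled signal, the processed intensity divided by the 75th percentile of its array and multiplied by 100, so that 100 is that percentile. A level can be compared between arrays for 1 probe, but not between probes. Differences are in log2 units with the standard error of the limma fit, n = 3 arrays per group. A gene was called where limma's Benjamini-Hochberg adjusted p over all 30837 genes tested was under 0.05. Without the pair of arrays, the groups with occlusion hold only VEGF arrays 2 and 3 and MCAO arrays 2 and 3. The pair was picked because it stood apart in these same data. Leaving it out narrows the spread by that choice, so calls in that fit are no independent support. In whole-tissue RNA, fewer cells of a type and less RNA per cell cannot be told apart.

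Of the family genes, 5 rose after occlusion with vehicle. Relative to sham, MCAO brains had higher Il6, Il11, Osmr, Stat3 and Socs3, and the remaining 5 did not pass. The count is 5 of 10 higher and 0 lower, where limma called 2.81% of all genes tested in either direction and 2.28% higher. Il6 and Lif were not well above background on every sham array. Both passed the filter, which asks for this on all arrays of some group, only through the groups with occlusion. With only probes well above background on all 9 arrays, neither was tested. In that fit 4 of the family genes were called, where 720 genes were called in all. The 3 MCAO arrays lay above all 3 sham arrays for 9 of 10 genes, all but Lifr, and over all genes the groups did not overlap for 40.3%, with MCAO higher for 19.6%. The median difference of the 10 genes was 2.71 log2 units, and that of all genes tested was -0.04. Without the pair of arrays 8 of 10 rose, where 22.8% of all genes were called and 9.79% were higher. The count fell when 1 sham array was left out. Without sham arrays 1, 2 and 3 in turn it was 2, 3 and 2 of 10, where 190, 256 and 248 genes were called in all.

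In VEGF brains 4 of the 10 genes rose relative to sham, namely Il6, Osmr, Stat3 and Socs3, and 0 were lower. The limit given above for Il6 and Lif in sham brains holds here as well. Of all genes tested 2.43% were called and 2.07% were higher. The VEGF arrays lay above all sham arrays for 8 of 10 genes, all but Osm and Lifr, against groups that did not overlap for 42.1% of all genes, 18.2% with VEGF higher. The median difference was 2.66 log2 units for the 10 genes and -0.12 for all genes. Without the pair, 7 of 10 rose, with 20.0% of all genes called and 8.76% higher. With 1 array left out the count ranged from 2 of 10 without sham array 1 (156 genes called in all) to 5 of 10 without MCAO array 1 (3270). Both comparisons use the same 3 sham arrays.

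**Figure D1:**
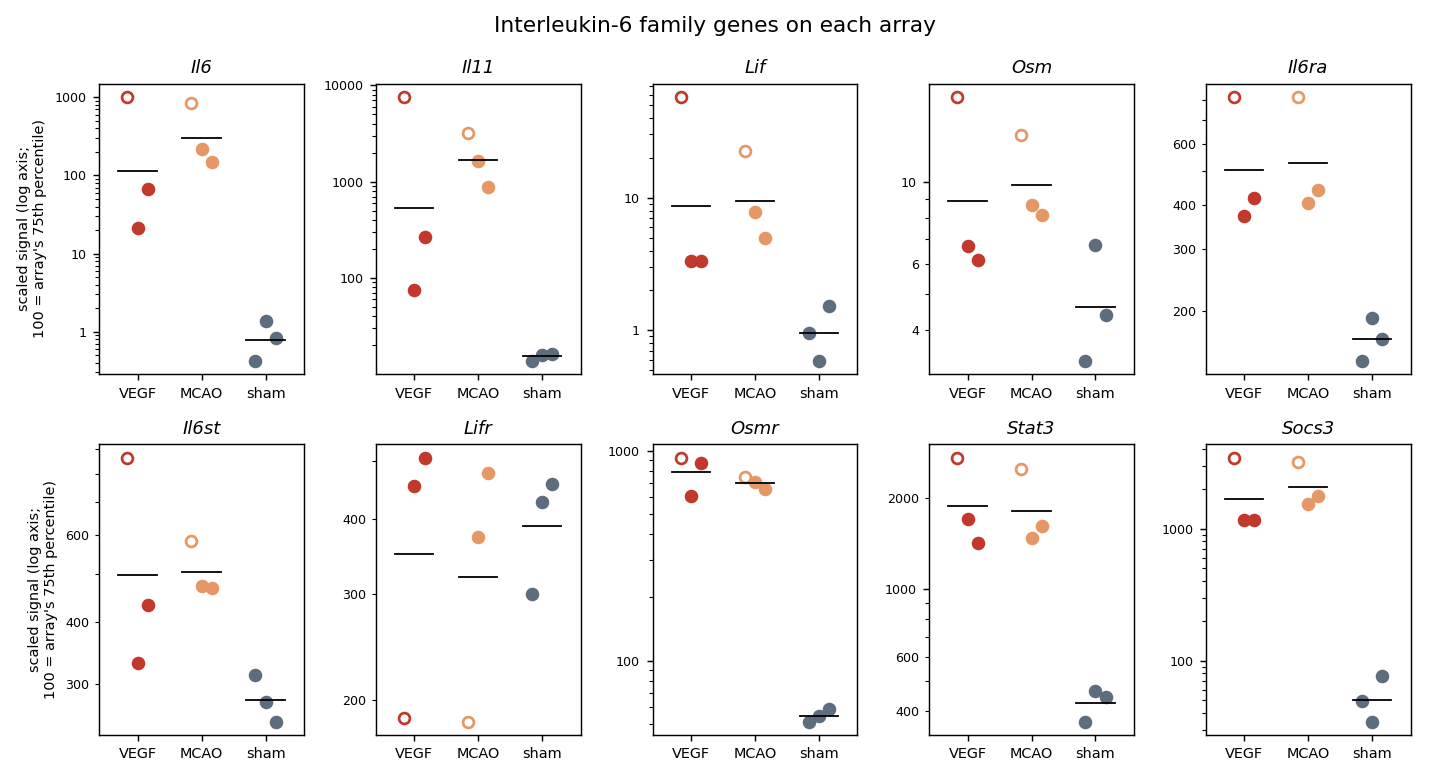
Scaled signal of each of the 10 genes (log axis, 100 is the array's 75th percentile) on the VEGF, MCAO and sham arrays, 1 point per array, with open points for VEGF array 1 and MCAO array 1 and a bar at the geometric mean of each group. The 6 arrays of mice with occlusion lie above all sham arrays for 8 genes, and Osm and Lifr overlap with sham.

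Il6, the founding ligand of the family and a driver of the acute-phase response, was among the genes with the widest spread. Il6 stood at 1014, 21.1 and 67.6 on VEGF arrays 1, 2 and 3, at 838, 220.0 and 149 on MCAO arrays 1, 2 and 3 and at 0.422, 1.36 and 0.835 on the sham arrays. VEGF array 1 was highest and MCAO array 1 next, and no array of mice with occlusion came near sham. Il6 was well above background on 2 of the 3 sham arrays and on all 6 others, so its sham level is close to the limit of measurement. The rise was 8.59 ± 1.30 log2 units in MCAO brains (limma adjusted p = 0.0135) and 7.18 ± 1.30 in VEGF brains (0.0287). With normexp background correction these differences were 5.72 in MCAO (limma adjusted p = 0.0468) and 4.41 in VEGF brains (0.108). Leaving out any 1 sham array ended both calls, with limma adjusted p = 0.0515 to 0.0877 for MCAO and 0.0896 to 0.145 for VEGF, as did leaving out VEGF array 3 for VEGF (0.0542). With the pair left out the rises were 7.86 ± 0.63 (limma adjusted p = 0.00130) in MCAO and 5.59 ± 0.63 (0.00438) in VEGF brains.

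Il11, a ligand that also uses Il6st and is known for effects on blood-forming, epithelial and stromal cells, varied most among the mice with occlusion. Il11 was 7621, 75.5 and 268 in VEGF brains, 3212, 1633 and 883 in MCAO brains and 13.8, 16.0 and 16.4 in sham brains. The 3 VEGF arrays therefore held both the highest and the 2 lowest values of the 6, while the sham arrays were tightly grouped. Il11 rose by 6.76 ± 1.42 log2 units in MCAO brains (limma adjusted p = 0.0460) and stood at 5.13 ± 1.42 in VEGF brains without passing (0.102). This call was close to the threshold. It was lost without any 1 sham or MCAO array (limma adjusted p = 0.0859 to 0.189) and without VEGF array 3 (0.0594), and with normexp background correction (0.0566) or no filter on dim probes (0.0586), while VEGF brains passed without VEGF array 2 (6.54, limma adjusted p = 0.0432). Without the pair of arrays both passed, at 6.29 ± 0.53 (limma adjusted p = 0.00154) in MCAO and 3.21 ± 0.53 (0.0129) in VEGF brains.

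Lif, leukemia inhibitory factor, was dim in sham brains and well above background on 1 of 3 sham arrays. Lif was 57.7, 3.35 and 3.32 in VEGF brains, 22.3, 7.80 and 4.94 in MCAO brains and 0.960, 0.589 and 1.54 in sham brains. Every array of mice with occlusion was above every sham array, and the pair of arrays was above the other 4. The differences of 3.32 ± 1.09 log2 units in MCAO and 3.18 ± 1.09 in VEGF brains did not pass with all arrays (limma adjusted p = 0.142 and 0.147). With normexp background correction they were 1.32 in MCAO and 1.46 in VEGF brains (limma adjusted p = 0.366 and 0.324). Without the pair Lif rose by 2.70 ± 0.40 in MCAO (limma adjusted p = 0.00801) and by 1.80 ± 0.40 in VEGF brains (0.0291). Without VEGF array 1 alone the MCAO difference passed as well (limma adjusted p = 0.0152).

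Osm, oncostatin M, a cytokine made mainly by leukocytes, showed the smallest differences of the 4 ligands. Osm was 16.9, 6.71 and 6.17 in VEGF brains, 13.3, 8.64 and 8.13 in MCAO brains and 3.30, 6.76 and 4.40 in sham brains. VEGF arrays 2 and 3 fell within the range of sham, and the MCAO arrays did not. The difference was 1.08 ± 0.44 log2 units in MCAO (limma adjusted p = 0.206) and 0.94 ± 0.44 in VEGF brains (0.230), and neither passed without the pair of arrays (limma adjusted p = 0.0757 and 0.275).

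Markers of leukocytes and microglia were measured on the same arrays. The summed scaled signal of 10 neutrophil markers was 2008 to 10753 on the VEGF arrays, 1767 to 13344 on the MCAO arrays and 313 to 383 on the sham arrays. In each comparison with sham limma called 4 of the 10 higher, S100a8, S100a9, Mmp8 and Cxcr2, beside 2.28% of all genes in MCAO and 2.07% in VEGF brains. Camp, Mpo and Ngp stood at -0.31, -0.19 and -0.19 log2 units in MCAO and at -0.40, 0.38 and 0.81 in VEGF brains, so the markers did not move as a whole. On each sham array 2 of the 10 were not well above background, and these were Mmp8 and Cxcr2. Both passed the filter on dim probes only through the groups with occlusion, so their calls show detection there and no measured difference from sham. S100a8 and S100a9 were well above background on all sham arrays. The sum over 9 microglia and macrophage markers was 11410 to 24131 on the VEGF arrays, 11806 to 14723 on the MCAO arrays and 9519 to 12066 on the sham arrays. Of these 9, limma called Adgre1 higher, at 2.08 ± 0.43 in MCAO (limma adjusted p = 0.0446) and 2.19 ± 0.43 in VEGF brains (0.0406), and P2ry12, a gene of resting microglia, lower, at -2.67 ± 0.20 in MCAO (0.000610) and -2.31 ± 0.20 in VEGF brains (0.00122). The part of these markers in the family's differences was not tested.

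Among the receptor chains Osmr, the signalling partner of Il6st for oncostatin M, changed most evenly. Osmr was 925, 606 and 871 in VEGF brains, 749, 706 and 655 in MCAO brains and 51.3, 54.4 and 59.0 in sham brains. All arrays of mice with occlusion lay in a narrow band far above sham, and the pair of arrays did not stand apart from the other 4. Osmr rose by 3.68 ± 0.21 log2 units in MCAO brains (limma adjusted p = 0.000212) and by 3.84 ± 0.21 in VEGF brains (0.000208), which are 12.8-fold and 14.4-fold. Its spread over the 6 arrays was 0.61 log2 units, the narrowest of the 10 genes, and Il11 had the widest at 6.66. Both calls on Osmr held under each alternative tried, with limma adjusted p of at most 0.00355.

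Il6ra, the chain that binds interleukin-6, was higher on every array of mice with occlusion but narrowly missed the threshold. Il6ra was 816, 374 and 419 in VEGF brains, 814, 407 and 444 in MCAO brains and 144, 190.3 and 166 in sham brains. The pair of arrays stood clear of the other 4, and these stood clear of sham. The difference was 1.67 ± 0.37 log2 units in MCAO (limma adjusted p = 0.0528) and 1.60 ± 0.37 in VEGF brains (0.0645). Both passed without the pair, at 1.36 ± 0.16 (limma adjusted p = 0.00366) and 1.26 ± 0.16 (0.00618). The MCAO difference passed without VEGF array 1 (limma adjusted p = 0.0148), and the VEGF difference passed without MCAO array 1 (0.0255).

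Il6st, the subunit that most ligands of the family use, differed less. Il6st was 863, 330.3 and 434 in VEGF brains, 586, 475 and 468 in MCAO brains and 312, 276 and 251 in sham brains. No array of mice with occlusion fell within the range of sham, although VEGF array 2 was close to it. The difference was 0.86 ± 0.33 log2 units in MCAO (limma adjusted p = 0.193) and 0.84 ± 0.33 in VEGF brains (0.187). Without the pair Il6st rose by 0.76 ± 0.17 in MCAO brains (limma adjusted p = 0.0240) and stood at 0.44 ± 0.17 in VEGF brains (0.109), and without VEGF array 1 alone the MCAO difference passed (0.0370).

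Lifr, the chain for leukemia inhibitory factor, had 3 probes that did not move together. Its brightest probe was 187, 454 and 506 in VEGF brains, 184, 373 and 477 in MCAO brains and 301, 428 and 457 in sham brains. Low values were found on the pair of arrays only, and the other 4 overlapped with sham. A second probe to the same RefSeq transcript was 31.3, 20.2 and 18.1 in VEGF brains, 27.4, 16.2 and 14.4 in MCAO brains and 14.8, 13.2 and 15.2 in sham brains. The probe to another Lifr transcript was 24.8, 26.7 and 14.5 in VEGF brains, 17.7, 14.4 and 14.1 in MCAO brains and 8.56, 10.4 and 8.58 in sham brains, with all 6 arrays of mice with occlusion above sham. The pair of arrays was thus lowest of all on the brightest probe and higher than every sham array on the other 2.

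When each of 43921 probes was tested on its own, no Lifr probe was called. The brightest stood at -0.28 ± 0.46 log2 units in MCAO (limma adjusted p = 0.752) and -0.15 ± 0.46 in VEGF brains (0.852). For the second probe the values were 0.37 ± 0.30 (0.501) in MCAO and 0.65 ± 0.30 (0.235) in VEGF brains, and for the probe of the other transcript 0.75 ± 0.26 (0.174) and 1.22 ± 0.26 (0.0590). The sign of the brightest probe turned without the pair of arrays, to 0.12 ± 0.22 in MCAO (limma adjusted p = 0.725) and 0.30 ± 0.22 in VEGF brains (0.365), so these probes and arrays give Lifr no single direction.

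**Figure D2:**
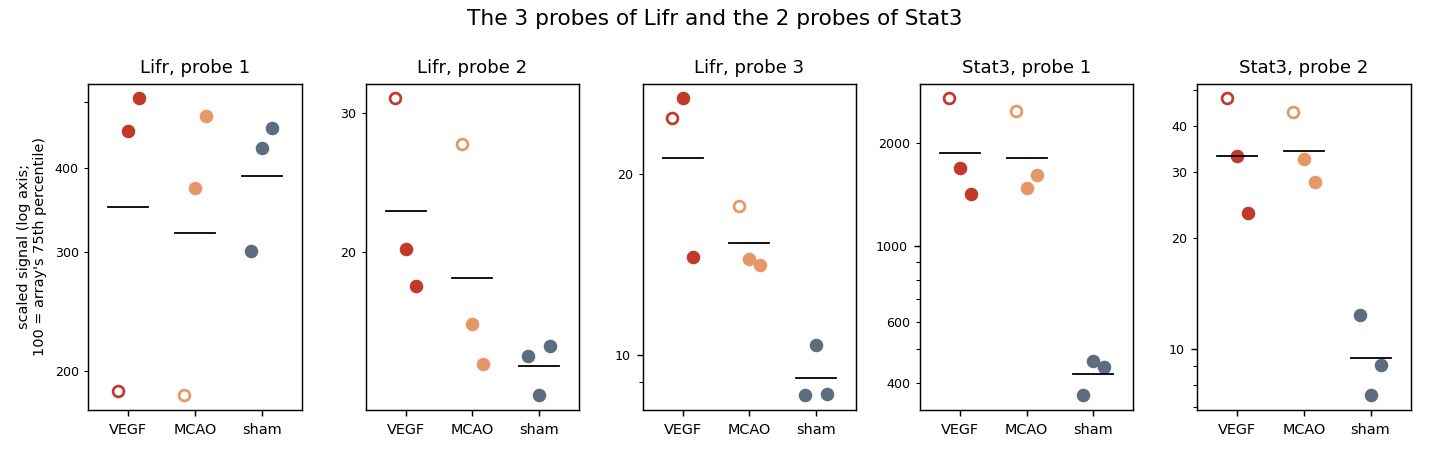
Scaled signal (log axis) of the 3 probes of Lifr and the 2 probes of Stat3 on the VEGF, MCAO and sham arrays, with open points for VEGF array 1 and MCAO array 1 and bars at the geometric means. On Lifr probe 1 the open points are the lowest of all 9 arrays, at 187 and 184, while on the other Lifr probes and on both Stat3 probes they lie above every sham array.

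Stat3, the transcription factor that the family activates, rose on both of its probes. Stat3 on the brighter probe was 2705, 1698 and 1424 in VEGF brains, 2487, 1478 and 1614 in MCAO brains and 368, 463 and 444 in sham brains. The dimmer probe, to another Stat3 transcript, was 47.4, 33.2 and 23.3 in VEGF brains, 43.7, 32.6 and 28.2 in MCAO brains and 12.4, 7.54 and 9.10 in sham brains. On both probes the groups with occlusion lay entirely above sham and the pair of arrays was highest. Stat3 rose by 2.10 ± 0.30 log2 units in MCAO (limma adjusted p = 0.0103) and by 2.14 ± 0.30 in VEGF brains (0.0106), which are 4.28-fold and 4.42-fold. Tested on its own, the dimmer probe rose by 1.85 ± 0.32 (limma adjusted p = 0.0246) and 1.81 ± 0.32 (0.0285). The MCAO call was lost without sham array 1 (limma adjusted p = 0.0699) or sham array 3 (0.0535), and the VEGF call without any 1 sham array (0.0520 to 0.0682). Without the pair both held, at 1.87 ± 0.16 (limma adjusted p = 0.00150) and 1.88 ± 0.16 (0.00180).

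Socs3, the feedback inhibitor, rose strongly and on every array of mice with occlusion. Socs3 was 3444, 1168 and 1167 in VEGF brains, 3162, 1537 and 1760.2 in MCAO brains and 49.6, 34.5 and 76.1 in sham brains. The pair of arrays was highest, and VEGF arrays 2 and 3 were the lowest of the 6. Socs3 rose by 5.33 ± 0.50 log2 units in MCAO (limma adjusted p = 0.00168) and by 5.05 ± 0.50 in VEGF brains (0.00237), which are 40.4-fold and 33.0-fold. Both calls held under each alternative tried, with limma adjusted p of at most 0.0233, and without the pair of arrays the rises were 5.02 ± 0.31 and 4.53 ± 0.31.

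**Figure D3:**
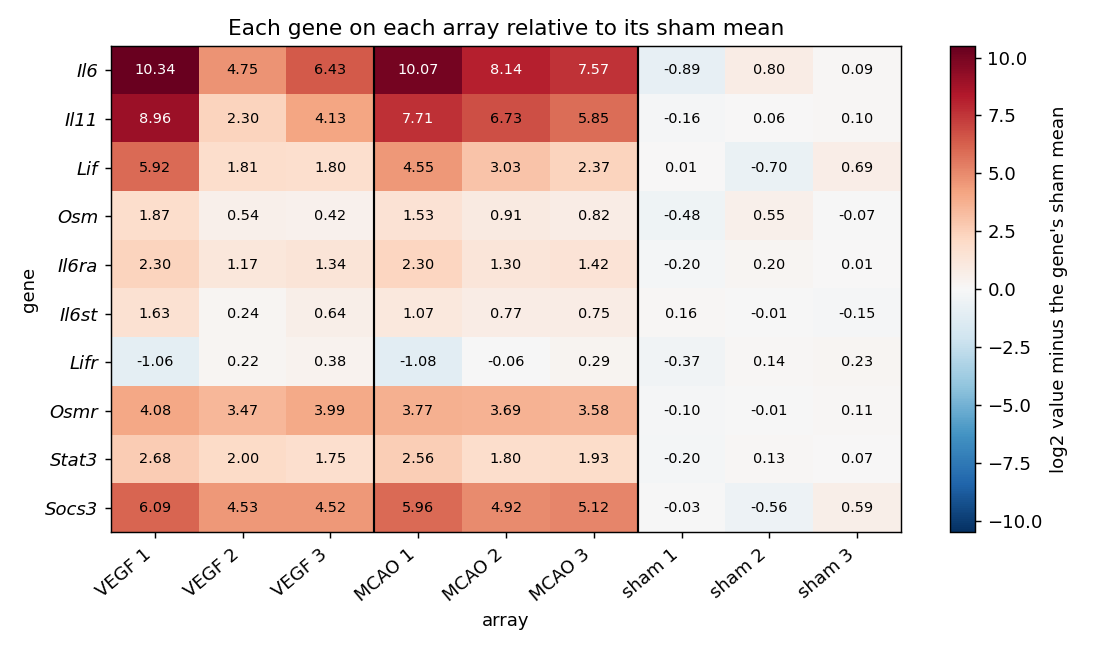
Log2 value of each gene minus its mean over the sham arrays, for the 3 VEGF, 3 MCAO and 3 sham arrays. VEGF array 1 and MCAO array 1 hold the 2 highest values of every gene but Osmr and Lifr, and on Lifr the 2 lowest.

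VEGF array 1 and MCAO array 1 lay above the other 4 arrays of mice with occlusion for 8 genes, below them for Lifr and among them for Osmr. Over all genes tested the pair lay above the other 4 for 33.3% and below them for 22.2%. The size of the gap differed between genes. Relative to the sham mean, Il6 stood at 10.34 log2 units on VEGF array 1 and 10.07 on MCAO array 1, against 4.75 to 8.14 on the other 4. Socs3 stood at 6.09 and 5.96 on the pair, against 4.52 to 5.12 on the others. For Il6ra these values were 2.30 on both arrays of the pair, against 1.17 to 1.42. Neuron and endothelial markers, given above, stood apart on the same arrays. So did neutrophil markers, with a median log2 difference from sham of 2.27 on VEGF array 1 and 2.05 on MCAO array 1, against 0.62 to 1.68. Microglia and macrophage, meningeal and fibroblast, and astrocyte markers stood highest on VEGF array 1 alone. Their median log2 difference from sham on that array was 1.57 for microglia and macrophage markers, against at most 0.67 on the other 5 arrays of mice with occlusion, 1.30 for meningeal and fibroblast markers, against at most 0.37, and 0.65 for astrocyte markers, against at most 0.0028. Oligodendrocyte markers were highest on MCAO array 1, at 1.86, against at most 1.09 on the other arrays of mice with occlusion. Among these arrays they were lowest on VEGF array 1, at 0.33. Choroid plexus markers did not set VEGF array 1 apart. They stood at -3.52 on VEGF array 1, -3.15 on VEGF array 3 and 2.03 on MCAO array 1, and from -1.12 to 0.59 on the sham arrays. The part of these markers in the gap, and that of the lower intensity of the pair, was not tested.

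The comparison of VEGF with MCAO brains asked whether ventricular VEGF changed the family after occlusion. None of the 10 genes was called by limma, none had an unadjusted p under 0.05, and the 2 groups overlapped for every gene. Of all genes tested limma called 0.00649%, the 2 acute-phase genes Orm1 and Orm2, both lower in VEGF brains and neither called with signals recomputed from the deposited parts. Orm1 was well above background on 1 of 3 VEGF arrays and Orm2 on 2 of 3, and both were on all 3 MCAO arrays. Their levels in VEGF brains are therefore close to the limit of measurement. Of all genes 2.78% had an unadjusted p under 0.05. The groups did not overlap for 5.80% of all genes, with VEGF higher for 2.33% and lower for 3.48%. With the pair of arrays left out limma also called none of the 10, where it called 0.00973% of all genes, 0.00649% higher and 0.00324% lower.

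The intervals show how much of a difference these arrays could miss. Il6 stood at -1.42 ± 1.30 log2 units in VEGF relative to MCAO brains, with a 95% interval of -4.39 to 1.56, and Il11 at -1.64 ± 1.42, with -4.88 to 1.61. For Osmr the difference was 0.17 ± 0.21, with a narrower interval of -0.31 to 0.64. Stat3 stood at 0.05 ± 0.30 (-0.63 to 0.73) and Socs3 at -0.29 ± 0.50 (-1.43 to 0.85). The remaining 5 genes had differences between -0.14 and 0.13, with the widest interval for Lif (-2.62 to 2.34).

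VEGF array 1 and VEGF arrays 2 and 3 lay on opposite sides of the MCAO arrays for 6 of the 10 genes, Il6, Il11, Lif, Osm, Il6st and Socs3. VEGF array 1 exceeded all 3 MCAO arrays and VEGF arrays 2 and 3 were below all 3 of them, an order found for 4.76% of all genes tested. This order was not set in advance and was read from these same arrays, so the counts carry no test. Without the pair of arrays Il11 stood at -3.08 ± 0.58 log2 units in VEGF relative to MCAO brains, Il6 at -2.26 ± 0.69 and Lif at -0.90 ± 0.44. None of these passed (limma adjusted p = 0.365, 0.590 and 0.723). Without VEGF array 1 alone Il11 stood at -3.55 and Il6 at -3.00 (limma adjusted p = 0.765 for both), and without VEGF array 2 they stood at -0.22 and -0.21 (1.00 for both).

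**Figure D4:**
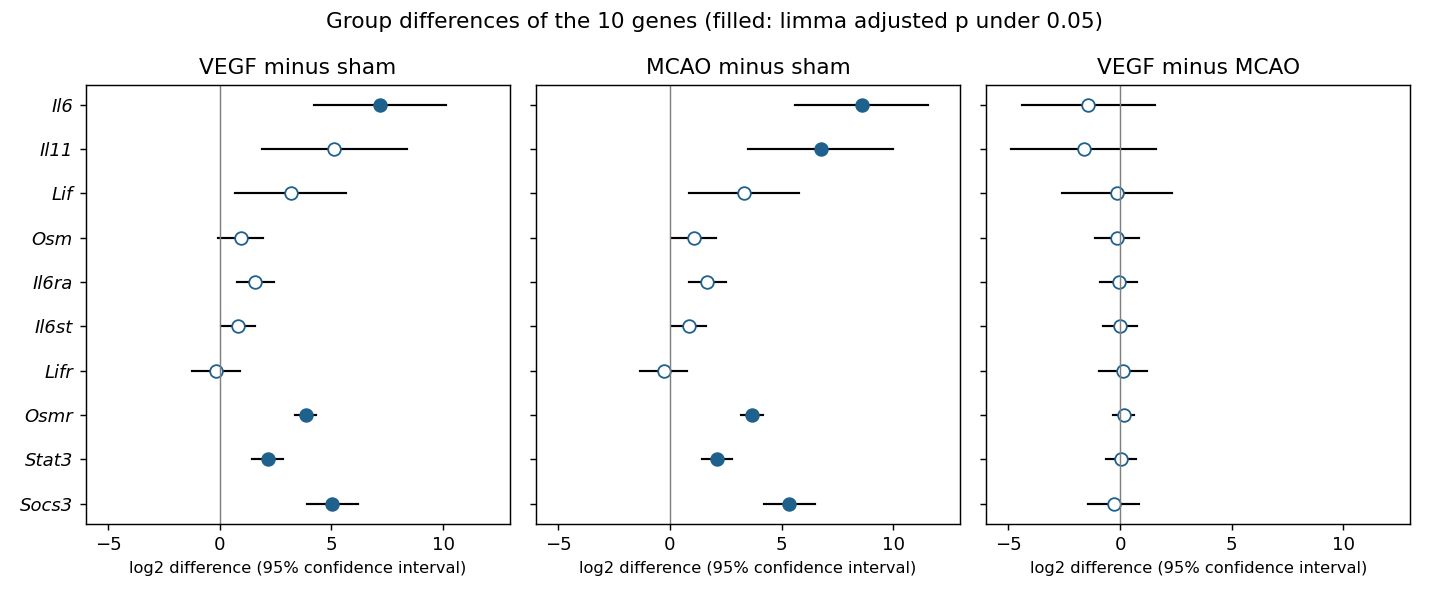
Log2 differences of the 10 genes with 95% confidence intervals from limma, for VEGF minus sham, MCAO minus sham and VEGF minus MCAO, with filled points for adjusted p under 0.05. Filled points are 4 in VEGF minus sham, 5 in MCAO minus sham and none in VEGF minus MCAO, where every interval spans 0 and those of Il6 and Il11 are the widest.

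The other ligands, receptors and kinases of the pathway were read on the same arrays, and limma called 0 of 14 in each comparison with sham. At an unadjusted p under 0.05 limma found 4 of these 14 in MCAO and 5 in VEGF brains, where it found 21.4% and 23.5% of all genes tested, so these counts lie near the share of all genes. Clcf1, cardiotrophin-like cytokine, stood at 3.15 ± 0.83 log2 units in MCAO (limma adjusted p = 0.0870) and 2.54 ± 0.83 in VEGF brains (0.138). Cntf, ciliary neurotrophic factor, stood at 1.87 ± 0.53 (limma adjusted p = 0.103) in MCAO and 1.95 ± 0.53 (0.0972) in VEGF brains. The 3 other ligands measured, Ctf1, Ebi3 and Il27, lay between -0.50 and 0.71 in MCAO and between -0.62 and 0.41 in VEGF brains. Il31 was not well above background on all arrays of any group and was not tested.

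Of the other receptor genes, Il11ra1, which binds interleukin-11, stood at 0.67 ± 0.28 log2 units in MCAO and 0.75 ± 0.28 in VEGF brains (limma adjusted p = 0.220 and 0.171). Il27ra stood at 0.89 ± 0.41 in MCAO and 0.44 ± 0.41 in VEGF brains. Cntfr and Il31ra lay between -0.39 and 0.26 in MCAO and between -0.32 and 0.12 in VEGF brains. Among the Janus kinases, Jak3, which is found mainly in leukocytes, stood at 1.19 ± 0.45 in MCAO and 1.13 ± 0.45 in VEGF brains (limma adjusted p = 0.188 and 0.189) and Jak2 at 0.50 ± 0.22 and 0.61 ± 0.22 (0.235 and 0.161). Jak1 and Tyk2 stood at -0.16 and -0.12 in MCAO and at -0.05 and -0.44 in VEGF brains. Without the pair of arrays Clcf1 and Cntf rose and Il27 and Il31ra fell in both comparisons with sham. In that fit limma called 22.8% of all genes tested in MCAO and 20.0% in VEGF brains, so these calls lie near the share of all genes. Clcf1 then stood at 2.50 ± 0.34 in MCAO (limma adjusted p = 0.00591) and 1.61 ± 0.34 in VEGF brains (0.0248), and Il27 at -0.83 ± 0.16 (0.0164) and -0.66 ± 0.16 (0.0352).

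Of 6 other STAT genes Stat5a, a mediator of cytokine and growth hormone signals, rose, by 2.40 ± 0.40 log2 units in MCAO (limma adjusted p = 0.0195) and 2.17 ± 0.40 in VEGF brains (0.0305), and the other 5 did not pass. Without the pair Stat6 rose as well in both comparisons, and Stat2 in MCAO brains. Of 7 other SOCS family genes limma called 0, with 7 of 7 at an unadjusted p under 0.05 in MCAO and 3 of 7 in VEGF brains, beside 21.4% and 23.5% of all genes. They did not share a direction. In both comparisons Cish, Socs1, Socs4 and Socs6 stood above sham, and Socs2, Socs5 and Socs7 below. Cish stood at 0.85 ± 0.22 (limma adjusted p = 0.0862) in MCAO and 0.80 ± 0.22 (0.105) in VEGF brains, Socs5 at -0.63 ± 0.22 (0.156) in MCAO and Socs6 at 0.94 ± 0.29 (0.125) in VEGF brains. In the fit without the pair Socs1 and Socs4 rose in MCAO brains, and Socs5 fell in both comparisons. Of all genes tested limma called 2.81% in MCAO and 2.43% in VEGF brains with all arrays, and 22.8% and 20.0% without the pair. Of 8 other negative regulators the phosphatase genes Ptpn6 and Ptpn2 rose. Pias1 fell in MCAO brains in the fit without the pair (-0.55 ± 0.12, limma adjusted p = 0.0231). Ptpn6, which is found mainly in blood-forming cells, rose by 2.37 ± 0.39 in MCAO (limma adjusted p = 0.0181) and 2.44 ± 0.39 in VEGF brains (0.0177), and Ptpn2 by 1.13 ± 0.22 (0.0313) and 1.05 ± 0.22 (0.0454). The receptor-shedding proteases Adam17 and Adam10 were not called, at 0.69 ± 0.37 and -0.01 ± 0.18 in MCAO and 0.69 ± 0.37 and 0.06 ± 0.18 in VEGF brains, and 0 of 2 had an unadjusted p under 0.05.

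Of 21 genes that STAT3 is known to turn on, 11 rose and 0 fell in MCAO brains, where 2.28% of all genes tested were called higher. In VEGF brains 13 rose and 0 fell, where 2.07% of all genes were called higher. Saa3, counted in both, was well above background on only 1 of 3 sham arrays. It passed the filter on dim probes only through the groups with occlusion. The median differences of the 21 were 2.68 log2 units in MCAO and 2.69 in VEGF brains. The siderophore-binding Lcn2 rose by 6.82 ± 0.34 in MCAO (limma adjusted p = 0.000136) and 6.82 ± 0.34 in VEGF brains (0.000180). Timp1, an inhibitor of matrix proteases, rose by 6.70 ± 0.46 (limma adjusted p = 0.000503) in MCAO and 7.14 ± 0.46 (0.000399) in VEGF brains. Bcl3, an NF-kB cofactor, rose by 5.60 ± 0.32 (limma adjusted p = 0.000212) and 5.55 ± 0.32 (0.000208), and Serpina3n, an acute-phase protease inhibitor of reactive astrocytes, by 4.63 ± 0.38 (0.00102) and 4.11 ± 0.38 (0.00172). With the pair left out, 16 rose in MCAO and 17 in VEGF brains, beside 9.79% and 8.76% of all genes. Leaving out any 1 sham array left 7 in each comparison. Without VEGF array 1, 16 rose in MCAO brains. The list was written with earlier results of these data known, so its counts beside all genes are no independent support. Many of these genes also answer to other inflammatory signals, and the share that STAT3 accounts for was not tested.

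**Figure D5:**
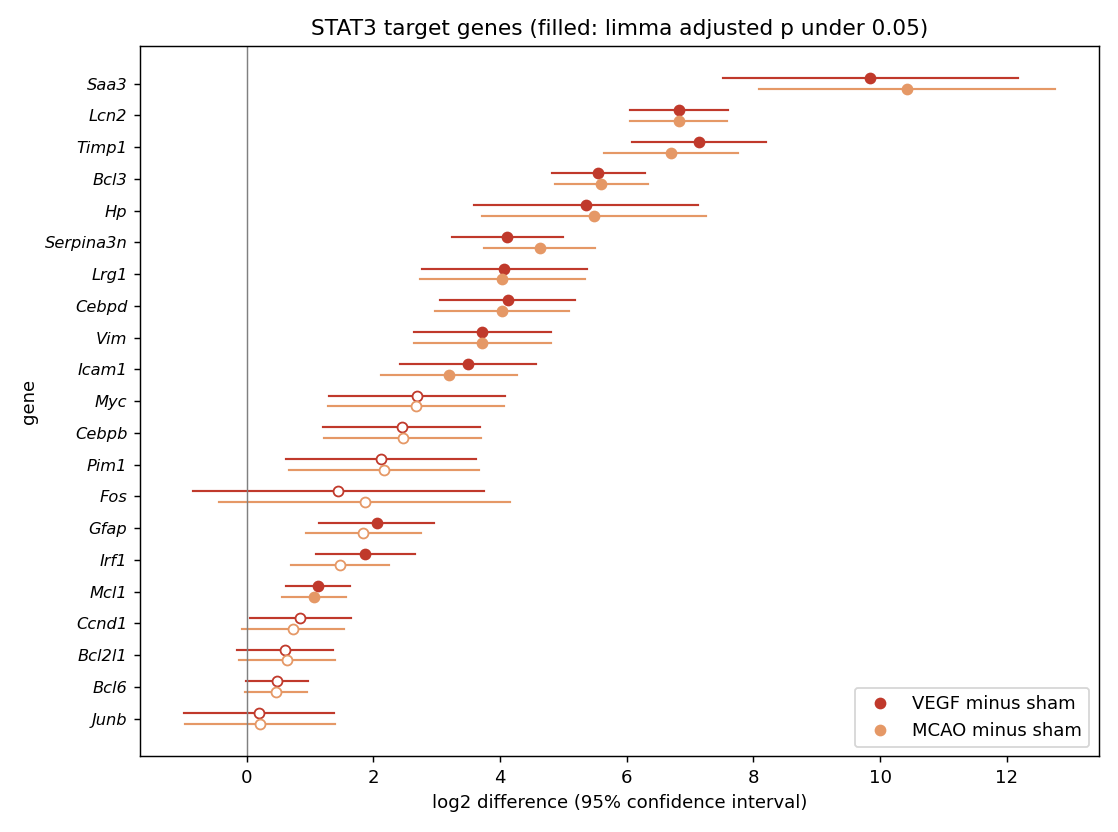
Log2 differences from sham with 95% confidence intervals for the 21 STAT3 target genes in VEGF and MCAO brains, with filled points for limma adjusted p under 0.05. Every point lies above 0, and 13 are filled in VEGF brains and 11 in MCAO brains.

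In VEGF relative to MCAO brains limma called 0 of the 58 pathway genes other than the 10, with 0 at an unadjusted p under 0.05. The largest departures by p in each list were small. Stat2 stood at -0.36 ± 0.24 log2 units and Stat5b at 0.22 ± 0.17, Socs5 at 0.18 ± 0.22 and Socs6 at 0.19 ± 0.29, and Pias1 at 0.28 ± 0.19 and Pias2 at 0.10 ± 0.19. Serpina3n stood at -0.51 ± 0.38 and Irf1 at 0.40 ± 0.34 (limma adjusted p = 1.00 for all 8). Ligands, receptors and kinases outside the 10 genes lay between -0.61 for Clcf1 and 0.12 for Ctf1.

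Genes whose 9 values, each relative to its own sham mean, lay nearest to those of Il6, Socs3 and Osmr were sought among the 17588 other genes with a symbol. For Il6 they were the chemokine genes Ccl11 and Cxcl1 and the myeloid receptor gene Lilrb4a, at root mean square distances of 0.83, 0.91 and 1.07 log2 units over the 9 arrays. Ccl11 was 335, 8.71 and 22.3 in VEGF brains and 194, 92.1 and 57.8 in MCAO brains, an order that follows Il6 array by array. For Socs3 the nearest were Ms4a6d, the oxysterol enzyme gene Ch25h and Cytip, at 0.42, 0.45 and 0.51. For Osmr they were the pattern receptor gene Tlr1, the serotonin receptor gene Htr2b and the interferon-induced Ifitm1, at 0.17, 0.31 and 0.36. These distances describe 9 arrays that share slides and groups, and carry no test.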

How the data were processed

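The authors deposited scanner intensity values from Agilent Feature Extraction 10.7.1.1, per the submitters' processing notes. Per the file headers the processed intensity is background-subtracted and divided by a spatial trend, deposited as a ratio per spot. On MCAO array 1, 5187 spots differed by over 0.1 log2 from that division, and processed intensity equalled the background-subtracted one, against 7 to 11 spots elsewhere. The authors' deposited table has an unstated scale, and its columns correlate at 0.998 to 1.00 with log2 processed intensity, each with a median of 6.98, so it was read as log2. The method behind it is not given in the sources used here.

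From the files, log2 processed intensity was averaged over the spots of a probe, leaving out outlier spots, and the 75th percentile of the array's 55681 probes that are no controls was subtracted. A probe was kept where every array of some group showed it well above background (43921 probes), and the brightest stood for a gene (30837 genes, of which 17589 have a RefSeq symbol). No spot was saturated. Accessions were named through a RefSeq table of GRCm38.p6. The 3 groups were fitted together with limma 3.58.1 in R 4.3.3 and adjusted by Benjamini-Hochberg over all genes. The median half-width of the 95% interval was 0.71 log2 units, and the number of arrays limits the precision. The fit was tested on simulated data.

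The 10 genes, lists and alternatives were chosen with earlier results of these data known. Named are all 10 genes with every probe, the other ligands, receptors and kinases except 1 gene that is not reported here, up to 4 called genes of smallest p (else 2) of each other list, and the 3 nearest genes of Il6, Socs3 and Osmr. Genes named for the fit without the pair of arrays were added after their values were seen, as were Saa3, Socs2 and Socs7. Same-numbered arrays of different groups deviated together with correlations of -0.11 to 0.59, over 0.1 in 6 of 9 pairs. All 3 same-numbered pairs of VEGF with MCAO arrays were over 0.1 (0.59, 0.22 and 0.56). MCAO array 2, however, correlated more with VEGF array 3 (0.39) than with VEGF array 2. The labels name no pairing, and every fit reported above left the arrays unpaired. A replicate block was run only as an alternative.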

Additional observations from a re-analysis of the deposited data

How the results depend on the processing

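Of 624 repeats of the single-gene results over 21 alternatives, 545 kept direction and side of the threshold, 22 lost and 22 gained a call and 35 changed sign, the last among differences that were not called. In MCAO against sham, 868 genes were called (81.0% higher), against 556 with normexp background correction, 1788 with only the 2 groups, 1594 with age, 12439 with array weights (40.7% higher) and 7028 without the pair of arrays (42.9% higher). Of the 10 genes 5 were called, 9 with array weights and 8 without the pair. In VEGF against sham, 748 genes (85.3% higher) became 438 with normexp, 7296 with array weights (44.3% higher), 6175 without the pair (43.7% higher) and 1077 with only the 2 groups (61.6% higher), and the 4 family genes became 7 with array weights and 7 without the pair. In VEGF against MCAO, 2 genes became 4 with quantile normalization, 0 with normexp, 0 with probes well above background on all 9 arrays, 1 with only the 2 groups, 27 with array weights and 0 with recomputed signals, an alternative chosen after seeing the data. Leaving out 1 array gave 190 to 2583 genes and 2 to 8 of the 10 in MCAO against sham, 156 to 3270 and 2 to 5 in VEGF against sham, and 1 to 3 and 0 to 0 in VEGF against MCAO. The lowest counts against sham came without sham array 1, the highest without VEGF array 1 (MCAO) and MCAO array 1 (VEGF). With a replicate block 1229 and 946 genes and 6 and 4 of the 10 were called against sham, and 2 genes and 0 of the 10 between VEGF and MCAO, and Il6ra passed in MCAO brains (limma adjusted p = 0.0453), with no other call on the 10 genes changed by the block. Of 9 arrays 6 correlated best with an array of their own number. Il11 in MCAO brains missed the threshold with normexp (0.0566) and with no filter on dim probes (0.0586), as did Il6 in VEGF brains with normexp (0.108). Sign changes in single genes were as follows. Lifr against sham stood at 0.12 in MCAO brains without the pair, and in VEGF brains at 0.10 with array weights and 0.30 without the pair. Between VEGF and MCAO, quantile normalization gave Lif 0.0087, Osm 0.018 and Stat3 -0.041, normexp gave Lif 0.14 and Osm 0.028, and the authors' table gave Lif 0.013, Osm 0.028 and Stat3 -0.040. Age gave Stat3 -0.046, array weights gave Osmr -0.034 and recomputed signals gave Il6st 0.00087. With 1 array left out, Lifr ranged from -0.57 to 0.12 in MCAO and -0.42 to 0.30 in VEGF brains. Between VEGF and MCAO it ranged from -0.27 to 0.58, Lif from -1.51 to 0.55, Osm from -0.60 to 0.12, Il6ra from -0.42 to 0.24, Il6st from -0.42 to 0.27, Stat3 from -0.22 to 0.28 and Socs3 from -0.81 to 0.026. The causes were not tested. The median of all genes against sham lay between -0.11 and 0.01 in MCAO brains and between -0.14 and 0.02 in VEGF brains over the alternatives, and the 0.02 came with normexp, against -0.12 as reported. Signal near background limits Il6 and Lif in sham brains.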
